A study of Mus musculus with 12 samples.

Results

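Cultured CD4+ T cells (cCD4, 3 arrays) were compared with every CD8+ T cell sample of the series (9 arrays), and genes were sought for which each cCD4 array lay above, or below, all 9 CD8 arrays whatever the state of the CD8+ cells. The 12 arrays together make up the whole series, and the sides were taken from the sample labels. The CD8 side held 5 arrays of CD8+ NKT-like cells, which were expanded with beads coated with anti-CD3 and anti-CD28 and a high dose of IL-2, 2 arrays of fresh naive CD8+ cells (nCD8) and 2 of CD8+ cells activated with a low dose of the soluble antibodies (aCD8). The cCD4 cells were sorted CD4+ cells that went through the bead and IL-2 protocol of the NKT-like cells, and the labels describe them as less suppressive. All cells came from spleens of female C57BL/6 mice labelled as 8 to 12 weeks old, and the labels name no transgene or deletion. The study describes the cultures as independent. Fresh or conventionally activated CD4+ cells were not analysed here. Lineage and culture therefore cannot be told apart against nCD8 and aCD8, and only the NKT-like arrays matched the culture of the cCD4 arrays. The study enriched CD8+ cells by negative selection, whereas the CD4+ cells were sorted on a cytometer, so cell isolation differed from the NKT-like cultures too.

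CD4+ and CD8+ T cells split in the thymus. CD4+ cells keep the coreceptor that reads MHC class II under the factor ThPOK (Zbtb7b), whereas CD8+ cells keep the CD8 alpha and beta chains, which read MHC class I, under Runx3. In the periphery CD4+ cells can become helper cells that secrete cytokines such as IL-4, IL-13 and IL-21, and CD8+ cells can become killers, with the T-box factor Eomes and NK receptors among their typical genes.

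Of 18193 genes, each read from 1 probe set as log2 RMA signal, 552 (3.03%) had all 3 cCD4 arrays above all 9 CD8 arrays and 193 (1.06%) had them below. These genes are called separated here, and the distance from the nearest cCD4 array to the nearest CD8 array is called the gap. The gap reached 2-fold for 55 of the genes above and 7 of those below, and its median was 0.211 and 0.08 on the log2 scale. The choice used the values of the contrast itself, so gaps are descriptions. The deposited values carry no detection call, so a fold against arrays that read near or below the overall median of 6.3 is a ratio of signals, with the dimmer side not shown to be above background. At the edge, Top2a (0.0004) and Gosr2 (0.0007) lay just inside with these log2 gaps, and Mtss1 (0) and Agfg1 (-0.0001) just outside.

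Over all genes, limma called 770 (4.23%) higher and 226 (1.24%) lower in cCD4 than the mean of the 3 CD8 group means at a Storey q of at most 0.01. Against each of the 3 CD8 groups at once, 101 genes (0.555%) were higher and 9 (0.0495%) lower. Against the matched NKT-like cultures alone, 333 (1.83%) were higher and 225 (1.24%) lower. Among the 3 CD8 groups themselves, 3875 genes (21.3%) differed. Over the 45037 probe sets, 1016 (2.26%) were separated above and 525 (1.17%) below. Of these probe sets, 1296 (2.88%) were higher and 639 (1.42%) lower than the CD8 mean, and 188 (0.417%) were higher and 16 (0.0355%) lower than each group.

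The cCD4 replicates 2 and 3 were the most alike pair of the series (Pearson r = 0.9949 over probe sets, SD of their difference 0.204 on the log2 scale), ahead of NKT-like replicates 2 and 4 (r = 0.9901, SD 0.282). Leaving out cCD4 replicate 1 raised the separated probe sets to 2609 above and 3137 below. With replicates 2 and 3 averaged into 1 sample, 425 probe sets were higher and 169 lower than the CD8 mean. The mean log2 signal of 15 B cell and MHC class II marker genes was 8.25 to 8.56 in the nCD8 arrays and 6.23 to 6.93 elsewhere, and that of 10 red cell genes 8.37 to 8.76 against 6.72 to 7.09. The part of these cells in the results was not tested, and in such bulk samples fewer cells of a type and less RNA per cell cannot be told apart. The mean of 4 T cell markers (Cd3e, Cd3g, Cd2 and Thy1) was 10.02 to 11.29 over all arrays.

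The coreceptor genes followed the labels. Cd4 read 9.82, 10.10 and 10.09 in the cCD4 arrays, and 6.55, 7.02 and 7.20 as the lowest, median and highest of the CD8 arrays (log2 signal). It was 8.16-fold higher in cCD4 than the CD8 mean (log2 difference 3.03 ± 0.13 (SE), q = 2.2e-07), with a gap of 2.62. Cd8a, the alpha chain, read 6.42, 6.92 and 6.84 in cCD4 against 9.94, 11.04 and 11.72, and was 17.6-fold lower in cCD4 (-4.14 ± 0.31, q = 1.1e-05). Cd8b1, the beta chain, read 6.50, 6.76 and 7.11 against 10.60, 11.57 and 12.72 and was 27.1-fold lower (-4.76 ± 0.40, q = 2.7e-05). No cCD4 array came within 3.02 log2 units of a CD8 array for Cd8a. None of the 3 genes passed the test among the CD8 groups (q = 0.067 to 0.27). A second Cd4 probe set was separated too, with a smaller difference of 0.56, and of the 4 further Cd8a probe sets 3 were separated.

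The factors named for the lineage choice did not separate the arrays. Zbtb7b read 8.47, 8.52 and 8.34 in cCD4 and 7.58, 8.33 and 8.94 as the lowest, median and highest CD8 values, so the cCD4 arrays lay within the CD8 range (0.24 ± 0.16, q = 0.21). Against NKT-like cells alone its difference was -0.17. Runx3 read 9.46, 10.35 and 10.27 against 9.57, 10.38 and 11.01 (-0.10 ± 0.23, q = 0.44), and its sign turned with array weights (0.11) and without cCD4 replicate 1 (0.19). Cd40lg, the helper ligand of CD40, read 6.60, 6.42 and 6.56 against 6.20, 6.37 and 6.64 and overlapped as well (0.08 ± 0.08, q = 0.31). Of 20 measured genes listed as CD4 against CD8 lineage factors, 2 (Gata3 and Id2) passed as higher and 2 (Eomes and Id3) as lower, and only Gata3 and Eomes were separated. Of all genes, 4.23% passed as higher and 1.24% as lower. Id2 and Id3 had differences of -0.40 and 0.26 against NKT-like cells, opposite in sign to those against the CD8 mean, and the Id3 call (q = 0.0022) was lost without cCD4 replicate 2 (q = 0.017) or replicate 3 (q = 0.015).

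Eomes gave the factor difference that was largest on the CD8 side of that list. It read 6.56, 6.56 and 6.50 in cCD4, 11.41 to 11.92 in the NKT-like arrays, 10.39 and 9.82 in nCD8, and 10.13 and 9.49 in aCD8. All CD8 arrays lay at least 2.92 log2 units above the cCD4 arrays, and Eomes was 15.9-fold lower in cCD4 (-3.99 ± 0.17, q = 1.6e-07). Its level also differed among the CD8 groups (q = 5.6e-05), highest in NKT-like cells. A second Eomes probe set was separated in the same direction (-3.08).

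Ms4a4b, a membrane protein of the family that includes CD20, had the widest gap below (3.92). It read 6.25, 7.26 and 7.43 in cCD4 and 11.35, 11.96 and 13.34 as the lowest, median and highest of the CD8 arrays, and was 39.5-fold lower (-5.30 ± 0.31, q = 2.4e-06). Atp8b4, a phospholipid flippase, read 5.98, 6.73 and 7.02 against 8.79, 10.64 and 11.43 (-3.18 ± 0.24, q = 1e-05). Its second probe set had a difference of -0.83 and was not separated. Mndal, of the interferon-inducible p200 family, read 6.52, 6.34 and 7.10 against 8.34, 9.51 and 11.85, and was 11.6-fold lower. Gramd3 and BC035044 had gaps of 0.75 and 0.91, and BC035044 did not pass without cCD4 replicate 2 (q = 0.033) or replicate 3 (q = 0.015). Cd69, an early activation antigen, read 8.33, 8.45 and 8.39 in cCD4 and 9.41, 10.30 and 11.15 in the CD8 arrays (-1.78 ± 0.33, q = 0.004). The Cd69 call was lost without any 1 of the 3 cCD4 arrays (q = 0.011 to 0.032), without nCD8 replicate 2 (q = 0.012) and without aCD8 replicate 2 (q = 0.013).

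**Figure D1:**
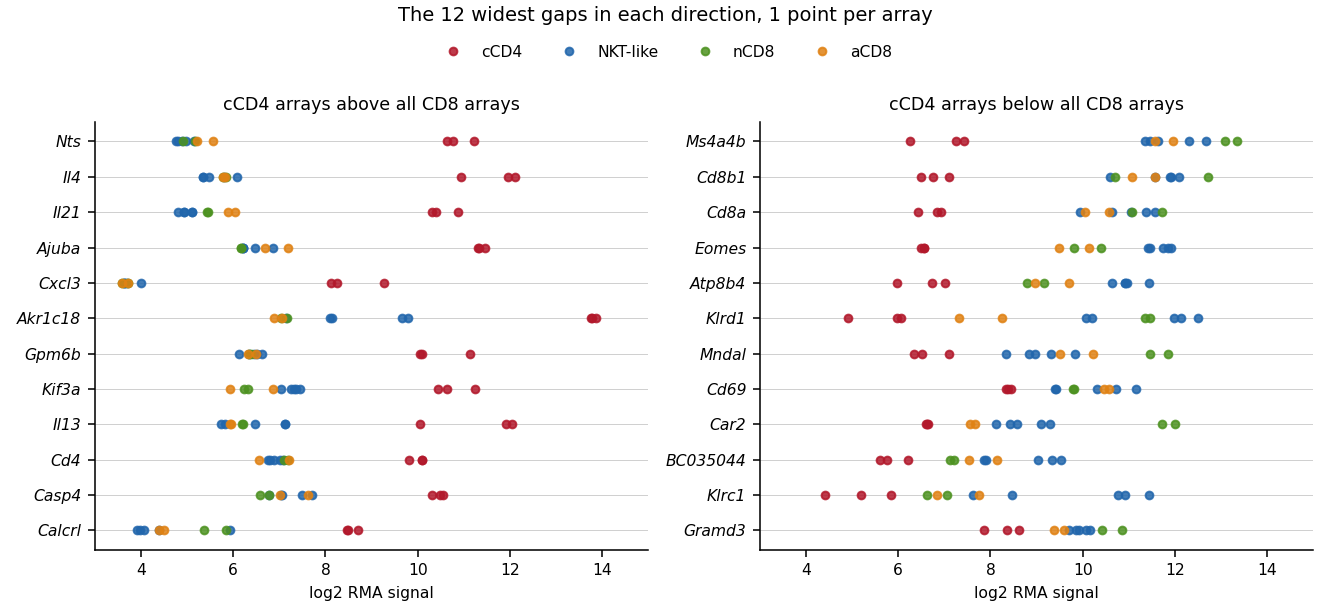
The 12 genes with the widest gap in each direction, with log2 RMA signal on the x axis and 1 point per array coloured by group. No cCD4 point overlaps a CD8 point, from the gap of 5.08 for Nts to 2.54 for Calcrl on the left and from 3.92 for Ms4a4b to 0.75 for Gramd3 on the right.

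Of 20 measured NK receptor and adaptor genes, 2 (Klrd1 and Fcer1g) passed as lower (1.24% of all genes did), 0 as higher and 18 neither way. Of these 20, 5 (25%, beside 1.06% of all genes) were separated below and 0 above. Their median log2 difference was -1.06, against -0.02 over all genes, and Klra1 (0.03), Klrc2 (-0.05), Klrc3 (-0.10) and Slamf7 (0.30) had small or positive differences. Klrd1, which encodes CD94, read 4.90, 5.97 and 6.05 in cCD4, and 7.32, 11.35 and 12.50 as the lowest, median and highest CD8 values. It was lower in cCD4 (-4.55 ± 0.53, q = 0.00025), and the low end of the CD8 range was set by the aCD8 arrays (8.26 and 7.32). Klrc1, the NKG2A partner of CD94, read 4.42, 5.19 and 5.84 against 6.63, 7.76 and 11.43 and was separated without passing the test (-2.84 ± 0.74, q = 0.022). Klrk1 (NKG2D), Cd160 and Il18rap, a subunit of the IL-18 receptor, were separated with q = 0.07, 0.014 and 0.02, and the gap for Klrk1 was 0.01. Against NKT-like cells, 6 of the 20 genes were lower and 0 higher, beside 1.24% and 1.83% of all genes. Fcer1g, a signalling adaptor, read 6.89, 6.81 and 6.85 in cCD4 and 9.88 to 11.80 in NKT-like cells, but 6.60 and 6.99 in aCD8, so it was not separated, and its call (q = 0.0077) was lost without any 1 of the cCD4 arrays (q = 0.015 to 0.057), and without NKT-like replicates 1, 2 or 4, either nCD8 array or aCD8 replicate 2 (q = 0.011 to 0.024).

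Killing genes varied with the CD8 state. Of 22 measured cytotoxic effector genes, 20 differed among the CD8 groups, beside 21.3% of all genes. Against the CD8 mean, 4 passed as higher in cCD4 and 1 as lower, and 3 were separated. Of all genes, 4.23% passed as higher and 1.24% as lower, and 3.03% were separated above and 1.06% below. Against the matched NKT-like cells, 8 of the 22 passed as lower and 1 (Stx11) as higher, beside 1.24% and 1.83% of all genes. The median log2 difference was -1.45 against NKT-like cells and 0.22 against the CD8 mean. The 8 included Prf1 (-4.81, q = 9.6e-05), which encodes perforin, and Gzmg (-5.91, q = 3.4e-05). Srgn, the granule proteoglycan serglycin, read 13.58, 13.49 and 13.49 against 12.37, 12.70 and 13.20 (0.82 ± 0.11, q = 0.00078). Stx11, a syntaxin of granule release, had a gap of 0.28 and was 2.99-fold higher (q = 0.00018). Gzmk, a granzyme, was separated below with a gap of 0.05. Gzma read 11, 13.49 and 13.45 in cCD4 and 14.37 to 14.55 in NKT-like cells, and Gzmb 12.71, 13.99 and 13.95 against 14.32 to 14.38. These NKT-like values lay at or near the highest signal of the arrays (14.51 to 14.55 in the NKT-like arrays), so no size is given for the differences from NKT-like cells, in which all cCD4 arrays read lower. Both granzymes passed as higher than the CD8 mean (2.58 and 1.54), which includes those NKT-like values. Both calls were lost without cCD4 replicate 2 (q = 0.037 and 0.03) or replicate 3 (q = 0.034 and 0.027), and that of Gzma without aCD8 replicate 2 (q = 0.011). In nCD8, Gzmb read 8.10 and 7.17 while all other arrays read 12.71 or more.

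Helper cytokines made up the largest separated share of any list with 10 or more measured members. Of 14 measured, 5 (35.7%) were separated above and 0 below, 8 passed as higher than the CD8 mean and 1 as lower, and 4 were higher than each CD8 group. Of all genes, 3.03% were separated above, 4.23% passed as higher and 0.555% were higher than each CD8 group. The median log2 difference of the list was 2.82, and 2.64 against NKT-like cells. The list was chosen with earlier results of these data known, so its count is no independent support.

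Il4, the cytokine that starts the type 2 helper programme, read 10.93, 11.95 and 12.11 in cCD4 and 5.35, 5.78 and 6.09 as the lowest, median and highest CD8 values. Its log2 difference was 5.92 ± 0.24 (q = 1.3e-07), and since every CD8 array read below the overall median of 6.3, no fold is given. Il13, which drives mucus and allergic tissue responses, read 10.05, 11.92 and 12.04 against 5.74, 6.19 and 7.13 (5.14 ± 0.43, q = 2.6e-05), with replicate 1 lowest. Il21, a cytokine of follicular helper cells, read 10.88, 10.31 and 10.40 against 4.80, 5.11 and 6.04 (5.07 ± 0.12, q = 2.5e-09). For all 3 genes every CD8 array read 7.13 or less and every cCD4 array 10.05 or more, in naive, activated and NKT-like cells alike. Lif, a cytokine of the IL-6 family, read 11.21, 10.76 and 10.69 in cCD4, 9.61 and 8.55 in aCD8 and at most 6.59 in the other CD8 arrays (3.72 ± 0.21, q = 1.6e-06). Il5, the eosinophil growth factor, read 6.66 in cCD4 replicate 1 but 9.69 and 9.76 in the others, against a CD8 maximum of 6.32. Its call (2.74 ± 0.54, q = 0.0058) was lost without cCD4 replicate 2 (q = 0.058) or replicate 3 (q = 0.053), without either nCD8 array (q = 0.013 and 0.017) and without aCD8 replicate 2 (q = 0.013).

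Other cytokines were higher in cCD4 than the CD8 mean without being separated. Il10, Il24 and Csf2 passed against the CD8 mean with differences of 4.73, 4.24 and 2.89, but at least 1 NKT-like or aCD8 array reached the cCD4 range. Il10 read 11.69, 12.46 and 12.28 in cCD4 and 8.86 to 12.33 in NKT-like cells, from which its difference did not pass (1.38, q = 0.33). The Il10 call was lost with the CD8 arrays pooled, with the matched cultures alone and without nCD8. Il2 went the other way, at 10.07 and 9.70 in aCD8 and 5.93 to 6.15 in cCD4, and its sign against the NKT-like cells was positive (0.37).

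**Figure D2:**
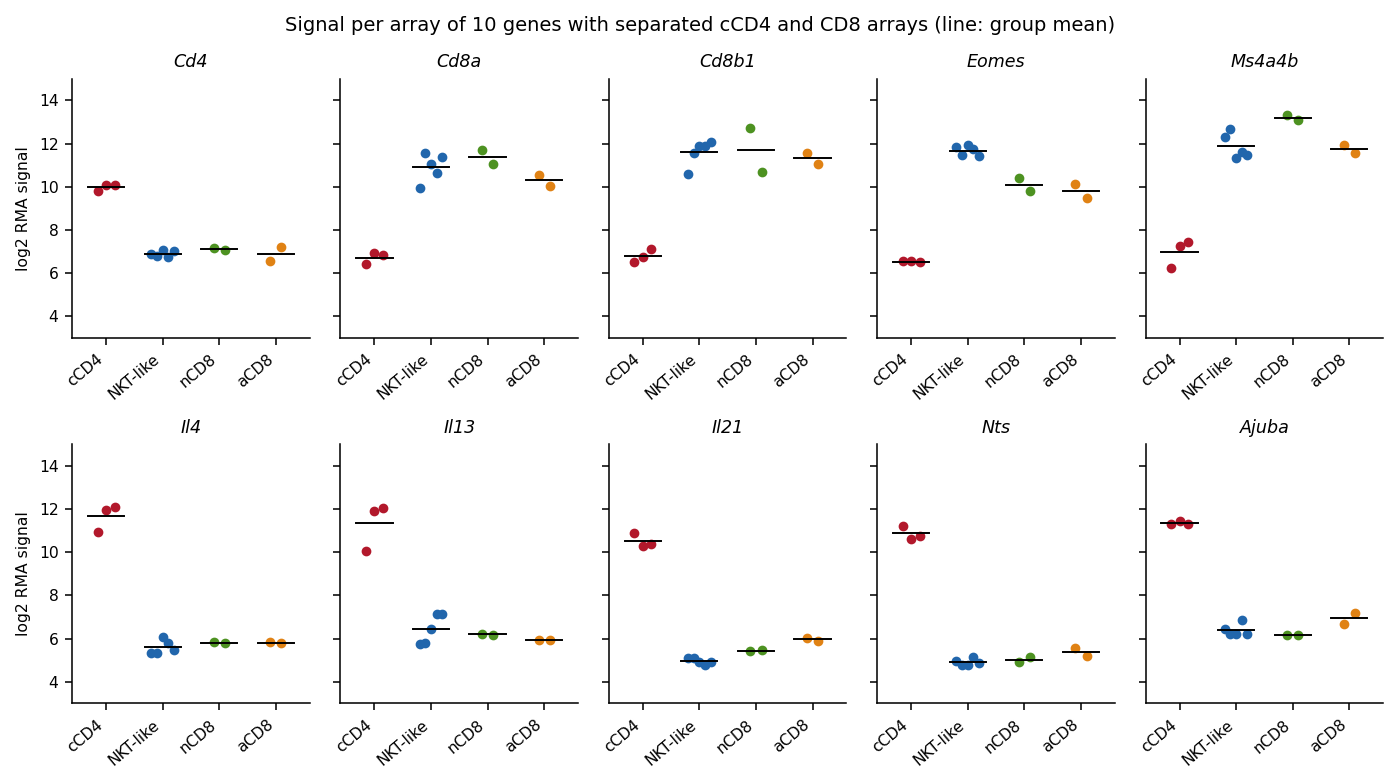
Log2 RMA signal (y axis) of 10 separated genes in each of the 12 arrays by group, with 1 point per array and the group mean as a line. Cd4, Il4, Il13, Il21, Nts and Ajuba lie higher in all 3 cCD4 arrays and Cd8a, Cd8b1, Eomes and Ms4a4b lower, with gaps of 2.62 to 5.08 and of 2.92 to 3.92.

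The type 2 cytokine genes sit together on chromosome 11. In RefSeq order (GRCm38.p6), the 6 coding genes Septin8, Kif3a, Il4, Il13, Rad50 and Il5 follow each other, and all 6 were separated above. Kif3a, a kinesin motor subunit that lies beside Il4, read 11.25, 10.45 and 10.63 in cCD4 against 5.93, 7.04 and 7.45 in the CD8 arrays and was 17.5-fold higher (4.13 ± 0.20, q = 5e-07). All 4 Kif3a probe sets were separated, with differences of 1.28 to 4.13. Septin8, a cytoskeletal GTPase, had a difference of 0.90 ± 0.11 (q = 0.00034) and a gap of 0.60. Rad50, a DNA repair protein whose gene lies between Il13 and Il5, had a difference of 0.79 ± 0.11 (q = 0.00082) and a gap of 0.23. The next genes on either side overlapped between the sides: Sowaha, Shroom1 and Gdf9 had differences of 0.06, 0.04 and 0.01, and Irf1, Slc22a5 and Slc22a21 of 0.42, 0.04 and 0. Irf1, which did not pass (q = 0.13), differed by 0.98 from NKT-like cells, more than Septin8 (0.84) and Rad50 (0.67) did. This stretch was chosen after its values were seen.

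On chromosome 3, Il21 had separated neighbours as well. Cetn4, a centrin next to it, read 10.31, 10.17 and 10.47 in cCD4 and at most 9.15 in the CD8 arrays (1.92 ± 0.16, q = 2e-05). Bbs12 followed without separating (0.38, q = 0.13), and then Fgf2, a fibroblast growth factor (1.07 ± 0.11, q = 9e-05), and Nudt6, which overlaps Fgf2 on the other strand (0.76 ± 0.15, q = 0.0066). On the other side of Il21 lies Il2, with a difference of -1.13 against the CD8 mean. The difference was -3.82 against aCD8 and 0.08 against nCD8.

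**Figure D3:**
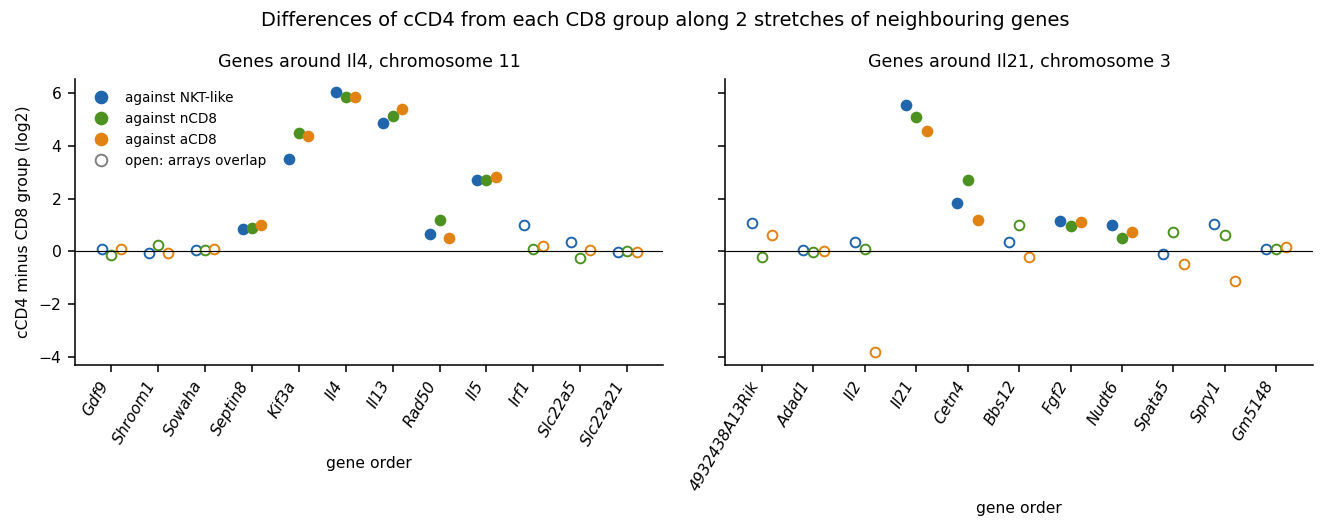
Difference of the cCD4 mean from each CD8 group mean (y axis, log2) for genes in RefSeq order around Il4 on chromosome 11 and Il21 on chromosome 3 (x axis, order only). Filled points mark separated genes. From Septin8 to Il5 all 6 genes are filled and above 0, with Il4 at 6.05, 5.85 and 5.85, while the flanking genes are open and the farthest of them from 0 is Irf1, at 0.98 against NKT-like. Around Il21 the filled genes are Il21, Cetn4, Fgf2 and Nudt6, and open genes reach 1.06 (4932438A13Rik against NKT-like) and -3.82 (Il2 against aCD8).

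Separated genes also lay side by side elsewhere. Of 544 separated genes above that could be placed, 130 (23.9%) had another with at most 1 coding gene between, and 10.5% of all 16473 placed genes had such a neighbour. Below, the shares were 16 of 175 (9.14%) and 3.56%. No test was made of these shares, and gene families lie in clusters and can share probe sequence. Casp1 and Casp4, Tnfrsf4, Tnfrsf18 and Sdf4, and Akr1c18 and Akr1c13 were adjacent above, and Cd8a and Cd8b1, Klrd1 and Klrk1, and Ms4a4b and Ms4a4c below. Akr1c18, a 20-alpha-hydroxysteroid dehydrogenase that inactivates progesterone, read 13.86, 13.77 and 13.79 in cCD4 and 6.88, 7.16 and 9.80 as the lowest, median and highest CD8 values (6.26 ± 0.47, q = 1.1e-05). Akr1c13 and Akr1c12 had differences of 3.55 and 3.10, while Akr1c14, Akr1c19 and Akr1c20 of the same cluster had -0.08, 0.20 and 0 and overlapped.

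The promoters of Il13 and Kif3a, from the chromosome 11 stretch, and of Nts and Cd8a, from the widest gaps above and the CD8 lineage, are shown since these genes separated the arrays in every state. Each window runs from 250 bases before to 50 bases after the gene's start on its own strand (RefSeq, GRCm38.p6). Capitals mark short motifs, each searched on both strands. The letters TGTGGT stand for the core bound by RUNX factors. The other motif, AGATAA, stands for the core bound by factors of the GATA family. The T-box motif was spelled GGTGTGA.
Il13, chr11:53634653-53634952, minus strand: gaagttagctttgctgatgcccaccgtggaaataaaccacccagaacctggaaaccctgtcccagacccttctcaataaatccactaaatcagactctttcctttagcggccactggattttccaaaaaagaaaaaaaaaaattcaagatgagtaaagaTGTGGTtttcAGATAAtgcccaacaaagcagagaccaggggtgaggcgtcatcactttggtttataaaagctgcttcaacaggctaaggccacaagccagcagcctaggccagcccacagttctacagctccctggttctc
Kif3a, chr11:53567119-53567418, plus strand: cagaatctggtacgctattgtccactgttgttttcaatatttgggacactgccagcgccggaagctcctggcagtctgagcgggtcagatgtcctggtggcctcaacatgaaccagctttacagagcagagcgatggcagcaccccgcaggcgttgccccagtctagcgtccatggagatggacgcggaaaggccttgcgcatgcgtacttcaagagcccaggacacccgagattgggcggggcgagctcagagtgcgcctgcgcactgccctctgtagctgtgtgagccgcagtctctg
Nts, chr10:102490369-102490668, minus strand: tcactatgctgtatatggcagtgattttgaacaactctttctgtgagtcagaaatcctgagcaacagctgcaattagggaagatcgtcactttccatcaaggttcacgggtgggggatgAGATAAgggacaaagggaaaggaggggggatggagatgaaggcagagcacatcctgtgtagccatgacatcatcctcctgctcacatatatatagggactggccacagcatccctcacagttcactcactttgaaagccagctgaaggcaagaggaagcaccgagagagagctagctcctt
Cd8a, chr6:71373177-71373476, plus strand: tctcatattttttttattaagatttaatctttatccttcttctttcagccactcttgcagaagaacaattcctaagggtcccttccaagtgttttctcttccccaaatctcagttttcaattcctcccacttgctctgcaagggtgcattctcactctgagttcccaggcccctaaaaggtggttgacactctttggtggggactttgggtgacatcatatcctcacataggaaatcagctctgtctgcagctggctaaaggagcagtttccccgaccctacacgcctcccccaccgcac
Il13 held 1 RUNX and 1 GATA match, Nts held 1 GATA match, and Kif3a and Cd8a held none of the 3 motifs. A window was matched for 14452 of the 18193 genes, with 458 of the 552 above and 151 of the 193 below, and Cd4 and Cd8b1 had no entry. The RUNX letters stood in 11.6% of the windows above, 9.93% of those below and 13.7% of all. The GATA letters stood in 7.64%, 8.61% and 8.13%, and the T-box letters in 2.18%, 3.31% and 3.63%.

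Genes outside T cell biology stood among the widest gaps. Nts, the precursor of the gut and brain peptide neurotensin, read 11.22, 10.63 and 10.76 in cCD4 and 4.76, 4.98 and 5.55 in the CD8 arrays, the widest gap of all (5.08) (5.76 ± 0.14, q = 2.5e-09). Ajuba, a LIM domain protein of cell junctions, read 11.30, 11.46 and 11.32 against 6.16, 6.22 and 7.18 and was 29.1-fold higher. Cxcl3, a chemokine for neutrophils, read 9.27, 8.26 and 8.11 against 3.58, 3.65 and 3.99. All 9 CD8 arrays thus sat near the low end of the scale for Cxcl3 (lowest value of any array 3.18), where array background weighs on a fold. Gpm6b, a neural membrane proteolipid, was 16.4-fold higher against CD8 arrays that read near the overall median (6.13 to 6.62). All 3 of its probe sets were separated (0.71 to 5.70). Calcrl, the receptor for adrenomedullin and the calcitonin gene related peptide, was higher (3.73 ± 0.36, q = 7.7e-05). Its CD8 arrays read 3.91 to 5.93, all below the overall median of 6.3, so no fold is given. Of its 3 probe sets the dimmest had a difference of -0.60 and was not separated.

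Casp1, Casp4 and Casp6 were higher in cCD4 than in each CD8 array. Of 18 measured caspase and BCL2 family genes, 6 passed as higher, 1 as lower and 11 neither way, and 4 (22.2%) were separated above and 1 (5.56%) below. The shares of all genes were 4.23% higher, 1.24% lower, 3.03% separated above and 1.06% below. The median log2 difference of the list was 0.44, and 0.04 against NKT-like cells, and Casp9 (-0.09) and Casp8 (0.69, q = 0.026) were among those that did not pass. Casp4, which senses bacterial lipopolysaccharide inside cells, read 10.32, 10.55 and 10.49 in cCD4 and 6.58, 7.04 and 7.71 in the CD8 arrays (3.39 ± 0.20, q = 1.8e-06). Casp1, the inflammasome protease, read 9.44, 9.30 and 9.47 against 6.08, 6.45 and 8.05, with NKT-like replicate 4 highest on the CD8 side (2.84 ± 0.28, q = 8.8e-05). Casp6, an executioner, read 10.84, 10.44 and 10.83 against 7.27, 8.02 and 8.62 (2.59 ± 0.21, q = 1.7e-05), but its second probe set did not pass. The fourth, Casp2, had a gap of only 0.03, and its call (q = 0.006) was lost without any 1 cCD4 array (q = 0.016 to 0.03), without NKT-like replicate 1 (q = 0.011), without nCD8 replicate 2 (q = 0.018) and without aCD8 replicate 2 (q = 0.011). Bid, a BH3-only member that carries the death receptor signal to mitochondria, lay below (-1.23 ± 0.20, q = 0.0024), and did not pass without cCD4 replicate 2 (q = 0.014).

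Of 20 measured helper surface genes, 6 passed as higher (4.23% of all genes did), 1 (Ccr6, -0.65, q = 0.006) as lower and 13 neither way. Of these 20, 4 (20%, beside 3.03% of all genes) were separated above and 0 below. Those that did not pass included Cd40lg, Ptgdr2 (-0.12), a prostaglandin D2 receptor, and Cxcr5 (-0.46), the follicular homing receptor. The Ccr6 call was lost without cCD4 replicates 2 or 3, NKT-like replicates 1 or 2, or either nCD8 array (q = 0.011 to 0.058). Ccr8, a chemokine receptor of type 2 and regulatory cells, read 7.93, 8.66 and 8.81 in cCD4 and 5.55, 5.87 and 6.04 in the CD8 arrays (2.64 ± 0.18, q = 6.9e-06). Ccr4, of similar cells, read 7.12, 7.49 and 7.73 against 5.76, 6.15 and 6.42 (1.29 ± 0.14, q = 0.00016). Both receptors were higher than each CD8 group and did not differ past the threshold among those groups (q = 0.28 and 0.12). Tnfrsf4 (OX40), a costimulatory receptor, read 13.12, 13.22 and 13.25 in cCD4, 12.41 and 11.85 in aCD8, 9.65 to 11.59 in NKT-like cells and 8.58 and 8.67 in nCD8. Cd28 had a gap of 0.14, and its call (q = 0.0028) was lost without cCD4 replicate 2 (q = 0.032) or replicate 3 (q = 0.024). Cd200 and Slamf1 passed too (2.71 and 1.72), but the aCD8 arrays reached the cCD4 range.

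Of 19 measured helper fate factors, 3 (15.8%) were separated above and 1 (5.26%) below, with 8 passing as higher and 1 as lower. The shares of all genes were 3.03% separated above, 1.06% below, 4.23% higher and 1.24% lower. Gata3, the master factor of type 2 helper cells, read 10.94, 10.69 and 10.68 in cCD4, 7.54 to 9.28 in NKT-like cells, 7.95 and 7.33 in nCD8, and 6.50 and 6.01 in aCD8. It was 10.1-fold higher than the CD8 mean (3.34 ± 0.34, q = 9.3e-05) and differed among the CD8 groups (q = 0.0034). The T-box factor Tbx21 (T-bet) read 10.69, 10.16 and 9.86 in cCD4 against 8.34, 9.19 and 10.10. Its difference was positive but did not pass (1.09 ± 0.30, q = 0.028), and it was not separated. Ifng read 6.84, 11.65 and 11.52 in cCD4, 7.85 to 11.80 in NKT-like cells and 12.45 and 12.28 in aCD8. In nCD8 it read 4.35 in both arrays, and it did not pass (1.09 ± 1.09, q = 0.31). Batf, an AP-1 partner of IRF4, read 10.94, 10.99 and 11 against 8.00, 8.95 and 10.10 (2.24 ± 0.24, q = 0.00015). Ikzf2 (Helios), a factor of regulatory T cells, was separated below: 6.72, 6.86 and 6.94 in cCD4 and 7.62, 8.90 and 10.39 in the CD8 arrays. The other Ikzf2 probe sets were not separated and did not pass (-0.11, q = 0.21 and -1.20, q = 0.099). Against NKT-like cells the Ikzf2 difference was -1.70 (q = 0.079). Its call (q = 0.0084) was lost without any 1 cCD4 array (q = 0.019 to 0.057), either nCD8 array (q = 0.017 and 0.024), NKT-like replicates 2 or 3 (q = 0.014 and 0.012) or aCD8 replicate 2 (q = 0.017). Foxp1, a factor of quiescent T cells from the naive list, was lower as well (8.72, 9.56 and 9.58 against 10.19, 11.07 and 11.40), with 5 of its 8 probe sets separated.

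**Figure D4:**
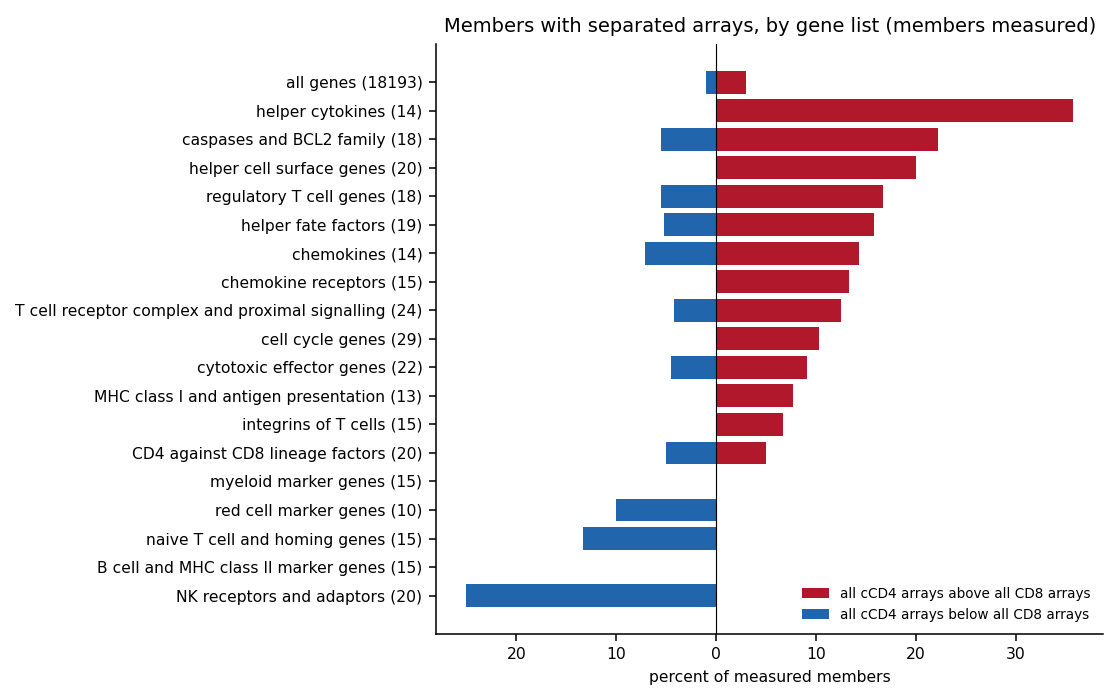
Percent of the measured members of each gene list (x axis, number measured in brackets) with all cCD4 arrays above (right) or below (left) all CD8 arrays. Helper cytokines reach 35.7% above and NK receptors 25% below, beside 3.03% and 1.06% of all genes at the top.

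The remaining lists gave smaller counts. Beside them, 3.03% of all genes were separated above and 1.06% below, and 4.23% passed as higher and 1.24% as lower. Regulatory T cell genes had 3 of 18 members separated above (Tnfrsf4, Tnfrsf18 and Izumo1r) and Ikzf2 below, with 7 passing as higher and 2 as lower. The Tnfrsf18 call (q = 0.0011) was lost without cCD4 replicate 2 (q = 0.013), as was that of Izumo1r (q = 0.011). T cell receptor complex and signalling genes had 3 of 24 above (Cd247, Lcp2 and Cd2) and the kinase Txk below (-2.19 ± 0.30, q = 0.00077). Of the 24, 2 passed each way, and Cd247 did not pass (q = 0.026). Chemokines had Cxcl3 and Cxcl2 above and Xcl1 below of 14, with 2 higher and 0 lower by the test. The 2 were Cxcl3 and Ccl9, which was not separated (3.86 ± 0.80, q = 0.0077). The Ccl9 call was lost without cCD4 replicate 2 or replicate 3. Cxcl2 did not pass (0.31 ± 0.09, q = 0.036), and all its arrays read below the overall median of 6.3. Chemokine receptors had Ccr4 and Ccr8 above of 15, with 3 higher and 1 lower. The cell cycle genes Top2a, Ccnb2 and Foxm1 were separated above of 29 measured, by gaps of at most 0.28, and Foxm1 did not pass (q = 0.024). Of the 29, 8 passed as higher, while 22 differed among the CD8 groups (21.3% of all genes did). The calls of Lcp2, Cd2, Psmb9, Top2a and Ccnb2 were lost without cCD4 replicate 2 (q = 0.071, 0.06, 0.024, 0.028 and 0.013) and without cCD4 replicate 3 (q = 0.075, 0.062, 0.029, 0.027 and 0.013). Except for Ccnb2 they were also lost without nCD8 replicate 2 (q = 0.011 to 0.021) and aCD8 replicate 2 (q = 0.012 to 0.027), and those of Lcp2, Cd2 and Psmb9 without cCD4 replicate 1 and several NKT-like arrays (q = 0.011 to 0.019). A single gene each was separated above among 13 MHC class I genes (Psmb9, a subunit of the immunoproteasome, with 1 passing as higher and 0 as lower) and 15 integrins (Itgb5, with 1 higher and 2 lower). Resting on 1 gene each, these shares (7.69% and 6.67%) are not read as results about the lists.

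Of 15 naive T cell genes, 5 passed as lower (1.24% of all genes did), 0 as higher and 10 neither way. Of these 15, 12 differed among the CD8 groups (21.3% of all genes did). Their median log2 difference was -0.53 against the CD8 mean but 0.46 against the matched NKT-like cells, where 1 gene was higher (Ccr7, a lymph node homing receptor, 2.02, q = 0.009) and 1 lower (Foxp1, -1.57, q = 0.0076). Of all genes, 1.83% were higher and 1.24% lower than NKT-like cells. Foxp1 and Ms4a4c were the 2 separated below. B cell genes had 2 of 15 and red cell genes 4 of 10 lower, in which the nCD8 arrays carried the signal given above. Car1, a red cell carbonic anhydrase, read 11.46 and 11.71 in nCD8 and 5.95 to 6.67 in all other arrays. Of 15 myeloid genes 0 passed either way. Only 3 of 13 gamma delta T cell genes were measured, too few for a count.

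Separation did not mean that the CD8 groups were alike. Of the separated genes, 152 of those above (27.5%) and 52 of those below (26.9%) differed among the CD8 groups, beside 21.3% of all genes. Among the separated genes that so differed, the CD8 group means ranged widest for Car2, Gzmk, Maf, Ms4a4c and Xcl1. Maf, a factor of IL-4, IL-10 and IL-21 producing helper cells, read 11.79, 11.58 and 11.51 in cCD4, 11.27 and 10.98 in NKT-like replicates 3 and 4, at most 8.72 in the other NKT-like arrays and 4.93 to 6.01 in nCD8 and aCD8. Its call (4.80 ± 0.72, q = 0.0014) was lost without cCD4 replicate 2 (q = 0.014) or replicate 3 (q = 0.012), and against NKT-like cells the difference was 2.29 (q = 0.13). Gzmk read 11.59 to 12.72 in NKT-like cells, 8.03 and 7.15 in nCD8 and 6.92 and 6.75 in aCD8, the last just above the cCD4 values of 6.53, 6.56 and 6.70. Xcl1, lymphotactin, read 12.02 and 11.82 in aCD8, 6.44 to 10.91 in NKT-like cells and 7.06 and 6.60 in nCD8, against 5.78, 5.82 and 6.02 in cCD4. The test did not pass for Xcl1 (q = 0.024). Car2, a carbonic anhydrase on the red cell list, was highest in nCD8 (11.71 and 12.01) but read 8.13 to 9.28 in NKT-like cells, against 6.61 to 6.64 in cCD4 (-2.07 against NKT-like, q = 0.00029).

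**Figure D5:**
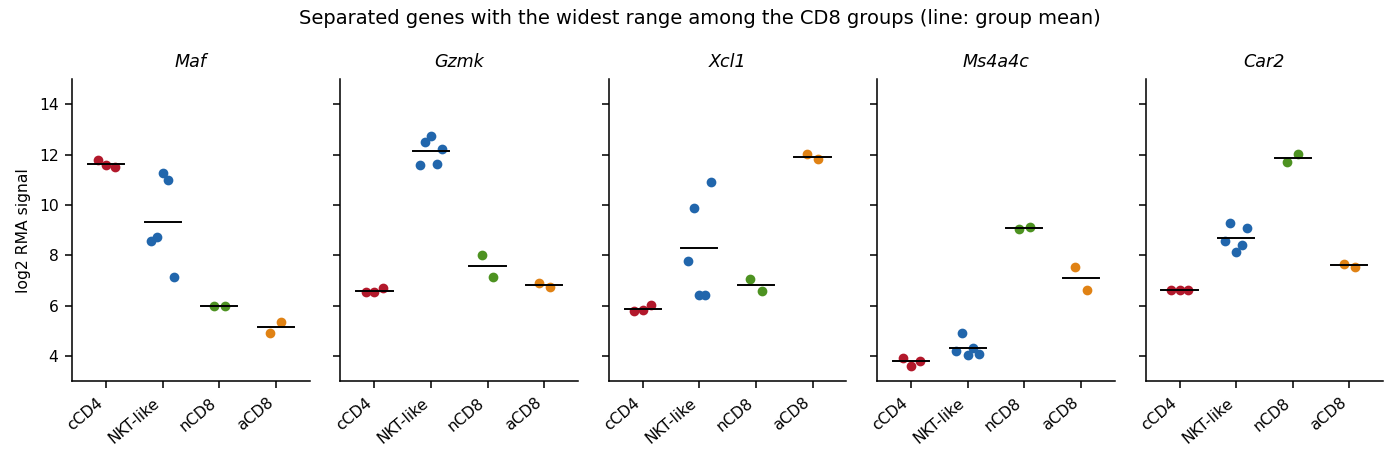
Log2 RMA signal (y axis) per array and group of the 5 separated genes whose CD8 group means range widest, with the group mean as a line. The CD8 groups lie far apart, such as 12.13, 7.59 and 6.83 for Gzmk in NKT-like, nCD8 and aCD8, and each lies beyond the cCD4 arrays.

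Against the matched NKT-like cultures alone, 228 of the 552 genes above (41.3%) and 53 of the 193 below (27.5%) passed, beside 1.83% and 1.24% of all genes. This contrast shares the cCD4 and NKT-like arrays with the choice of genes, so nothing is read from these shares. A second probe set was present for 313 genes above, of which 262 had a difference of the same sign and 120 were separated too. Below, 89 of 100 had the same sign and 21 were separated. Of the 91 genes picked out by the naming rule, 80 passed in the analysis of all 12 arrays and 21 of these in every one of their 25 to 28 alternatives. The 21 were Cd4, Cd8a, Cd8b1, Eomes, Ms4a4b, Gramd3, Il4, Il13, Il21, Kif3a, Nts, Ajuba, Akr1c18, Cxcl3, Gpm6b, Calcrl, Casp1, Casp4, Batf, Ccr4 and Ccr8. The naming rule took most genes by their q or their separation, and the alternatives reused the same arrays. These counts are therefore no independent support.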

How the data were processed

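Spleen T cell RNA was hybridised to Affymetrix whole-genome mouse arrays, with 1 array for each of 12 samples, and the number of arrays limits the precision. The deposited values are log2 signals that the authors made with RMA (which subtracts background, equalises the distributions of the arrays and summarises the probes of each set). Its version is not stated in the labels or the methods, and no further scaling was applied. Array medians ran from 6.23 to 6.42 and values from 3.18 to 14.55. Of 45101 probe sets, 64 controls were left out and 45037 tested. For this array 34945 have 1 gene symbol, 932 several and 9160 none. Symbols were updated through Entrez identifiers (162 absent from the gene table), and each of 18193 genes was represented by its probe set of highest mean signal, with cross-hybridising sets used only where a gene had no other.

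A means model of the 4 groups was fitted with limma 3.58.1 in R 4.3.3 (8 residual and 3.03 prior degrees of freedom). Contrasts set cCD4 against the mean of the 3 CD8 group means and against each group, and an F test compared the CD8 groups. Storey q-values were computed per contrast over all 45037 probe sets and called at 0.01 or less. Errors are SE of the fit, folds are 2 to the power of a log2 difference, and p-values measure the spread between these samples. The code was tested on simulated data. Members and lists were chosen with earlier results of these data known. Named genes were the 12 widest gaps in each direction, up to 4 members of each of 20 lists with the largest passing difference, passing members that went against the rest and separated members, 7 lineage genes, and the 5 separated genes that varied most among the CD8 groups.

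The alternatives left out each array in turn and the nCD8 or aCD8 group, used only the matched cultures, pooled the CD8 arrays into 1 group, added the replicate number as a block, and changed the adjustment, prior, weights, normalization, filter or probe set. Replicate numbers are given in the labels and were not taken as pairs.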

Additional observations from a re-analysis of the deposited data

Results flagged for a closer look

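Among 91 named genes, 1 NKT-like array stood apart from the other 4 by the Dixon ratio for 5 (5.49%), and chance alone flags about 1 in 20 such groups. Aurka, a mitotic kinase, read 7.53 in NKT-like replicate 3, with the nearest other array at 8.66. Calcrl read 5.93 in NKT-like replicate 4, with the nearest at 4.38, and all cCD4 arrays stayed above 8.47 or at it. Car1 read 6.10 in NKT-like replicate 4, with the nearest at 6.20, a small difference in a tight group. Cxcl3 read 3.99 in NKT-like replicate 3, with the nearest at 3.70, both near the low end of the scale. Ikzf2 read 10.39 in NKT-like replicate 4, with the nearest at 8.40, and this array was the highest of all CD8 arrays for Ikzf2.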

How the results depend on the processing

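Counts of probe sets are given in this order: higher and lower than the CD8 mean, separated above and below, higher and lower than each CD8 group, and differing among the CD8 groups (1296, 639, 1016, 525, 188, 16 and 8305 with all arrays). Leaving out 1 array gave 407 to 2625, 164 to 1982, 1047 to 2609, 558 to 3137, 79 to 232, 7 to 17 and 2573 to 11996. The first 2 were lowest without cCD4 replicate 2 and highest without aCD8 replicate 1, the separated counts highest without cCD4 replicate 1, and the last lowest without nCD8 replicate 2. Without an nCD8 or aCD8 array the lone sample left was assumed to vary like the other groups. Separated counts can only rise when arrays are dropped.

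Pooling the CD8 arrays into 1 group left 248 higher and 20 lower. Pooling adds the differences between CD8 states to the error, and it also weights the CD8 mean by arrays, of which 5 of 9 are NKT-like. The matched cultures alone gave 605, 370, 3010 and 2518. Without nCD8, 413 were higher and 112 lower. Without aCD8, the first 6 counts were 2478, 1580, 1919, 1254, 501 and 124. Same-numbered arrays of different groups had correlations of their deviations from -0.501 and -0.422 (cCD4 and aCD8) to 0.28 (nCD8 and aCD8, 2 arrays each), with 0.057, 0.03 and -0.185 for cCD4 and NKT-like, so not every pair deviated together. With the replicate number as a replicate block, 401, 148, 58 and 3 passed, and 1076 differed among the CD8 groups. Benjamini-Hochberg adjustment gave 414 lower and 4657 among the CD8 groups. A q of 0.05 gave 3129, 2108, 398, 52 and 18181. Array weights gave 2393, 1378, 67 and 4. Quantile normalization gave 25 lower than each group, median centring 394 lower than the mean, and a filter at the overall median of 6.3 left 331 separated below. Per gene, the counts were 770, 226, 552, 193, 101, 9 and 3875. With cCD4 replicates 2 and 3 averaged, chosen after seeing the data, they were 425 and 169, 842 separated below, and 97 and 8. The call of 55 of the 91 named genes was lost with pooled groups, of 25 with the replicate block and of 26 with the averaged replicates. With the sign unchanged, the call of 28 was lost with the matched cultures alone and of 36 without nCD8. These last counts leave out the genes whose sign turned. Of those, all but Zbtb7b, which had not passed, also lost their call with the matched cultures alone, as did Gzmb without nCD8. Some counts depend on the number of arrays or probe sets by their definition. The cause of the other changes, those with pooled groups included, was not tested.

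The sign of 12 named genes turned with the matched cultures alone: Actn1 0.42, Car1 0.02, Ccr6 0, Ermap 0.02, Gzma -1.85, Gzmb -0.80, Id2 -0.40, Id3 0.26, Il2 0.37, Ms4a1 0.15, Tespa1 0.04 and Zbtb7b -0.17. For Gzma and Gzmb the NKT-like arrays read at or near the array maximum, so only the sign is read. Gzmb turned without nCD8 (-0.65) and Il2 without aCD8 (0.22). Runx3 turned with array weights (0.11), without cCD4 replicate 1 (0.19) and, to 0, without aCD8 replicate 1, with a range of -0.26 to 0.19 over the arrays left out. Signal over background limits genes near 3.18, the lowest value of any array.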
